A study of Arabidopsis thaliana with 2 samples.

Results

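Histone H2B is encoded in Arabidopsis thaliana by a family of intronless genes, and 10 of them, HTB1 to HTB9 and HTB11, were taken by locus identifier from the deposited tables, out of 31280 genes in all. They are AT1G07790 (HTB1), AT5G22880 (HTB2), AT2G28720 (HTB3), AT5G59910 (HTB4), AT2G37470 (HTB5), AT3G53650 (HTB6), AT3G09480 (HTB7), AT1G08170 (HTB8), AT3G45980 (HTB9) and AT3G46030 (HTB11). All 10 were found, each as 1 transcript. The annotation used here calls 5 of them by an HTB name and lists the others by locus, so the HTB numbers of those are taken from common usage. HTB10 (AT5G02570), a further H2B gene, is not one of the 10 and is given beside them where it helps.

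Immature, unopened flower bud clusters of the Col-0 accession were profiled with 1 single-stranded RNA library and 1 library of RNA from pooled monosomes and polysomes. Neither group has a further treatment or genotype in the labels, except that the single-stranded library was digested with a nuclease, named RNase ONE and described there as specific for double strands. The enzyme of that name is known as one that digests RNA without a paired strand, which contradicts the description. Which RNA a hotspot marks therefore rests on the label of the library, and hotspots are called single-stranded here only in that sense. The first library is deposited as 33187 hotspots, stretches of 50 to 1533 nt on 1 strand, and the second as a table over 9574408 mapped clones. With 1 library per assay no difference has a replicate check and no test across samples was possible. Intervals are 95% Poisson intervals and cover counting error only. They treat the weighted clones as if these were whole counts, and are therefore approximate. Of 8 flower bud markers, all lay above 0.246 RPKM, the median of the 23419 genes above 0 and called the median gene from here on (0.195 RPKM with genes at 0 included), from 0.852 RPKM for the organ identity gene AG to 18.7 RPKM for the flavonoid gene TT4, whereas 1 of 3 root markers and 0 of 3 seed markers did.

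H2B pairs with H2A, and a pair of these dimers joins the H3 and H4 tetramer to form the protein core of the nucleosome. Most plant core histone genes are known to be transcribed mainly in S phase, when new chromatin is packed, so dividing tissue such as young flowers carries their mRNA. H2B is also known for a ubiquitin placed near its C-terminal end by the E3 ligases HUB1 and HUB2, a mark of transcribed chromatin. HTB8 encodes a divergent H2B variant known from sperm and seeds, while HTB2 and HTB9 are annotated as substrates of the HUB ligases.

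HTB4 had the most ribosome-bound RNA of the H2B genes. The RPKM, which is the authors' weighted clone count scaled to library size and to each kb of the listed transcript, was 14.0 for HTB4 (11.5 to 16.9), from 142 clones weighted to 109. HTB9 stood at 6.07 RPKM (4.38 to 8.2), its neighbour on chromosome 3 HTB11 at 5.58 RPKM (3.92 to 7.7) and HTB5 at 5.4 RPKM (3.68 to 7.65). HTB2 followed at 5.29 RPKM (3.66 to 7.41) and HTB1 at 4.16 RPKM (2.79 to 5.98). These 5 differed by less than their counting error, and on these deposited values the lower bound of HTB4 lay above the upper bound of each of them. With the same clones over annotated lengths the gap was smaller, with HTB4 at 8.82 RPKM and HTB9 at 6.07.

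The remaining 4 members had lower values, of which that of HTB6 was not separated from those of the 5 just named. HTB6 stood at 2.51 RPKM (1.2 to 4.61), an interval that overlapped those of HTB9, HTB11, HTB5, HTB2 and HTB1, and its unweighted value of 6.26 RPKM was close to that of HTB1 at 6.59. Lower still were HTB7, the member with the shortest protein, at 0.83 RPKM (0.263 to 1.96), and HTB3 at 0.779 RPKM (0.261 to 1.79). The sperm and seed variant HTB8 was lowest at 0.0909 RPKM (0.000368 to 0.703), from 8 clones weighted to 0.637. Of the 9 pairs next to each other in this order, 8 had overlapping intervals, and of all 45 pairs 20 did. The intervals of HTB7 and HTB3 overlapped both that of HTB6 above them and that of HTB8 below. HTB10 stood at 1.76 RPKM (0.692 to 3.68), between HTB6 and HTB7.

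In all, 9 of the 10 members lay above the median gene, against 44.0% of the 26633 nuclear protein-coding genes. HTB8 was the exception, with 32.6% of the genes below it, whereas 99.4% lay below HTB4. The median of the 10 was 4.73 RPKM, 19.3-fold over the median of the genes above 0, and HTB4 alone held 31.4% of the summed RPKM of 44.8. Counting clones without the authors' weights moved all members up, by 1.31-fold for HTB4 to 12.6-fold for HTB8, and put HTB8 at 1.14 RPKM, above the unweighted median of 0.465 over genes above 0. It kept HTB4 first at 18.4 and HTB8 last, and HTB11 at 12.7 RPKM then stood ahead of HTB9 at 12.4. The listed transcripts of HTB6 and HTB8 are as long as their coding sequences, 417 and 732 nt, so they hold no UTRs, and over the annotated transcript lengths HTB4 stood at 8.82 RPKM, HTB5 at 3.26 and HTB6 at 1.1. These values divide the same clones by the longer length, so any clones on the added bases are left out and the values can be too low.

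**Figure D1:**
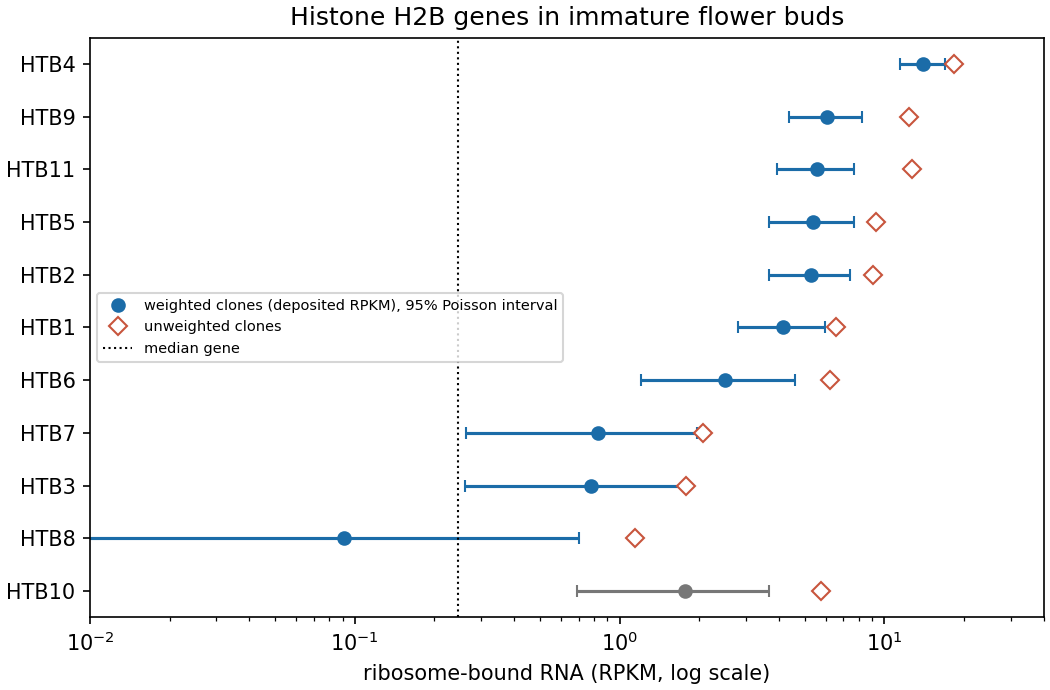
Ribosome-bound RNA of the 10 H2B genes and HTB10 (grey) on a log axis in RPKM, from 1 library; filled circles are the deposited values with 95% Poisson intervals on the weighted clones (that of HTB8 runs beyond the left edge), open diamonds the values from unweighted clones, and the dotted line the median of genes above 0 at 0.246 RPKM. On the deposited values the interval of HTB4, at 14.0 RPKM, lies clear of the others, and HTB8 at 0.0909 RPKM has the widest gap between the weighted and unweighted values.

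The proteins of 9 members were close to each other and that of HTB8 was not. Among these 9 the encoded proteins, of 126 to 151 residues, had 80.2 to 99.3% identical residues over the aligned part in 36 pairs, with a median of 89.0%. HTB9 and HTB11 were closest at 99.3%, followed by HTB4 and HTB11 at 98.6%, so the 3 members of highest RPKM were also 3 of the most alike. HTB7 was the most distant of the 9, with a median of 83.3% to the other H2B genes. HTB8, of 243 residues, had 45.3 to 49.3% identity with the other 9. Its longest ungapped block of alignment began at residues 147 to 149 for 7 of the 9.

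**Figure D2:**
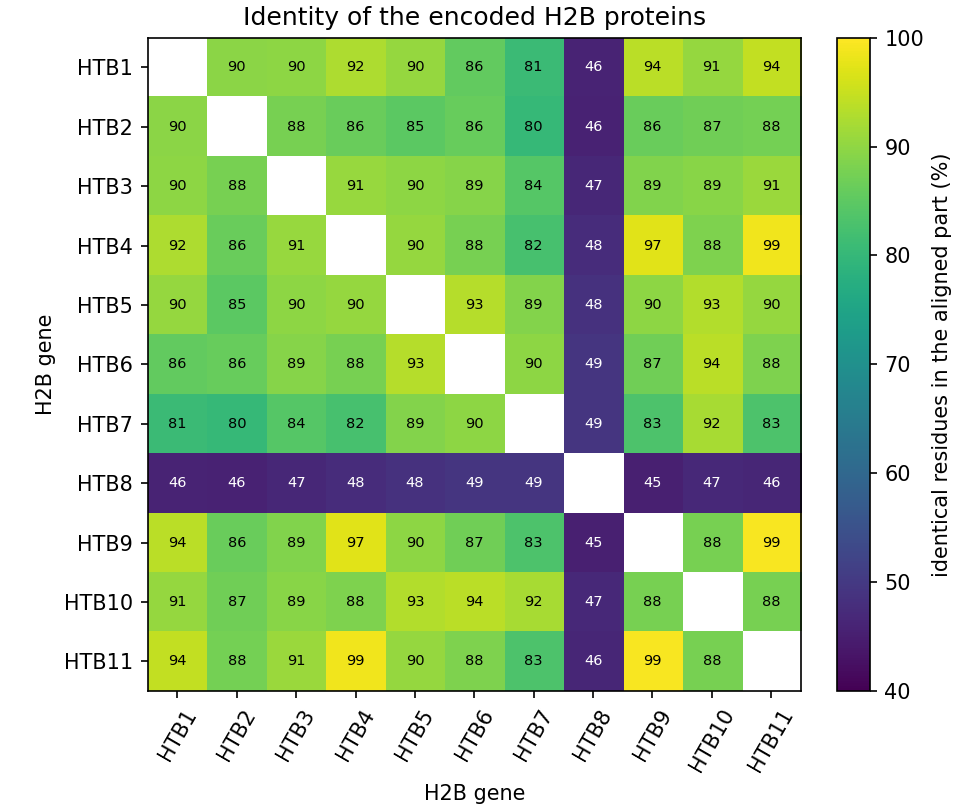
Identity of the proteins encoded by the 10 H2B genes and HTB10, as the percent of identical residues in the aligned part of each pair, from the reference coding sequences. HTB8 forms a dark row and column at 45.3 to 49.3% with the other members, and HTB9 with HTB11 is the brightest pair at 99.3%.

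HTB9 and HTB11 lie 15.4 kb apart on chromosome 3 and share a run of 62 identical coding bases, the longest between any H2B genes compared. The stretch is shown because clones lying wholly within that run cannot be told apart between these genes. It covers codons 63 to 83 of HTB9, and the 21 codons aligned to it in other members follow, in TAIR10.1, 5′ to 3′ on the coding strand, with capitals where a base differs from HTB9. They lie at chr3:16897696-16897758 (minus strand) for HTB9, chr3:16913818-16913880 (minus) for HTB11, chr5:24127392-24127454 (plus) for HTB4, chr2:12327232-12327294 (plus) for HTB3, chr3:2915094-2915156 (minus) for HTB7 and chr1:2563160-2563222 (minus) for HTB8, all in the single coding exon.
HTB9: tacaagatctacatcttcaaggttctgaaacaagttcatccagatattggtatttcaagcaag
HTB11: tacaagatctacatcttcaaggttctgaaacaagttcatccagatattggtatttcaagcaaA
HTB4: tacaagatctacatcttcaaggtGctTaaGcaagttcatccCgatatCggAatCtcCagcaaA
HTB3: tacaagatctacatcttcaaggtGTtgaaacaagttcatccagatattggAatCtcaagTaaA
HTB7: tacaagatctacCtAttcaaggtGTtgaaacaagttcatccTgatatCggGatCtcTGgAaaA
HTB8: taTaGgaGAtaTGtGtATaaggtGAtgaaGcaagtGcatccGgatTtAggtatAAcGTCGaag

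HTB11 differs from HTB9 there at 1 base, HTB3 at 6 and HTB4 at 9, and the 21 encoded residues are the same in all 4. HTB7 differs at 12 bases and 2 residues, and HTB8 at 22 bases and 7 residues. The coding sequences thus differ at synonymous places even where the proteins are alike.

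Sequence shared at the length of a short read was moderate in the family. Of the 20-base words of the annotated transcript, 26.1% of HTB9 and 25.4% of HTB11 were found at another place of the genome, nearly all of them in another H2B gene. For the other members the share was 2.07 to 9.42%, with HTB8 lowest and none of its words in another H2B gene. The shared words lay mainly in coding sequence, with 42.2% of the coding words of HTB9 and 0.73% of those outside it. In HTB1 the shares inside and outside the coding sequence were alike, at 5.37 and 5.67%.

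The order of the authors' weights differed from the order of these shares. The mean weight per clone, weighted over unweighted clones, ran from 0.765 for HTB4 to 0.0796 for HTB8, around a median of 0.583 over all genes. HTB9 and HTB11, with the most shared words, had mean weights of 0.491 and 0.44, above HTB3 at 0.436, HTB7 at 0.403 and HTB6 at 0.401, each with 7.61 to 8.87% shared. The weights cover the listed transcripts but the shares the annotated ones, which are longer for all members but HTB9. For HTB6, listed as coding sequence only, 20.9% of the coding words were shared, against 26.1% for the whole transcript of HTB9. HTB8 had the fewest shared words and the lowest weight, and 3.18% of the genes with a clone had a mean weight at or below its own. It had 19 such words, found at up to 27 places. Where its 8 clones lie is not in the deposited table, so their part in the low weight was not tested.

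**Figure D3:**
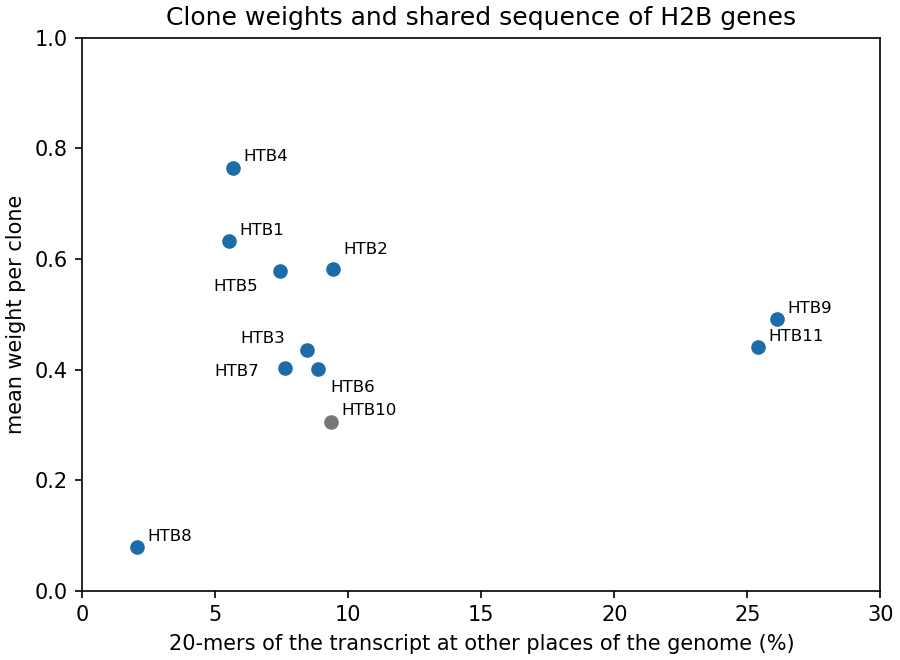
Mean weight per clone (y axis, no unit) against the percent of 20-base words of the annotated transcript found at other places of the genome (x axis) for the 10 H2B genes and HTB10 (grey). HTB9 and HTB11 stand to the right at 26.1 and 25.4%, with weights of 0.491 and 0.44, and HTB8 stands at the lower left at 2.07% and 0.0796. The weights are over the listed transcripts, which are shorter than the annotated ones for all but HTB9.

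Hotspots of the single-stranded library were found on 1 of the 10 members, HTB8, the one with the least ribosome-bound RNA. It carried 3, and the other 9 carried none on their own strand, HTB4 with 142 clones included. A hotspot was present on 52.3% of all nuclear protein-coding genes, on 37.6% of the 7129 genes within the annotated length range of the members (727 to 1286 nt) and on 65.2% of those within their RPKM range. Of the 1323 genes within both the length and the RPKM range of the 9 without a hotspot (0.779 to 14.0 RPKM), a comparison chosen after seeing the data, 51.2% had one. All 10 members have 1 exon, against 20.4% of genes, and among the 1872 genes of 1 exon in the length range 29.9% had a hotspot. A gene with no listed hotspot is not shown to lack single-stranded sequence, since the depth of that library on each gene was not analysed here.

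The 3 hotspots of HTB8 all lay in coding sequence on chromosome 1, minus strand. The first, at chr1:2563609-2563664 (TAIR9), spans nt 9 to 64 counted from the start codon, in the N-terminal part. The second, at chr1:2563249-2563309, spans nt 364 to 424. The third, at chr1:2563147-2563204, spans nt 469 to 526, inside the part that aligns with all other members, and 45 of its bases fall on the HTB8 stretch printed above. Together they cover 175 nt, or 23.9% of the coding sequence. Their deposited scores of -1.27, -2.62 and -2.08, where a lower value was taken as stronger, put 87.4, 48.9 and 68.9% of all hotspots ahead of them, so none was stronger than the median hotspot. At least 3 hotspots were present on 2.54% of the genes in the length range and on 13.1% of all genes.

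HTB10 was alike in number, with 3 same-strand hotspots on a transcript of 522 nt. One covers the start codon (20 nt before to nt 34), another spans nt 174 to 239, and the last has 66 of its 74 nt in the 3′ UTR and the rest beyond the annotated transcript end. HTB10 lies wholly within the H2A gene HTA12 on the other strand, at 0.217 RPKM. HTB9 overlaps a lncRNA gene, AT3G07315, on the other strand over 249 nt and the expansin-like gene EXLA1 over 22 nt, and no hotspot lay on its transcript on either strand. No source used here states whether clones were counted by strand, so the values of HTB9 and HTB10 may include clones of the opposite gene.

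**Figure D4:**
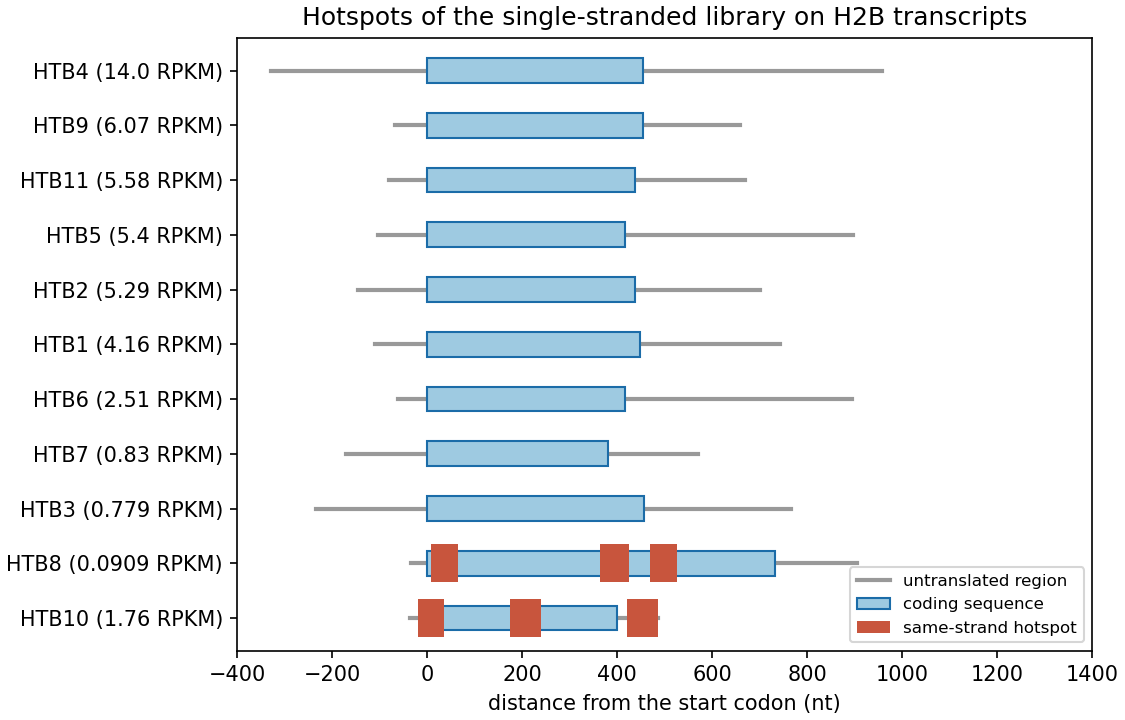
Annotated transcripts of the H2B genes in order of RPKM, with HTB10 last, drawn from the start codon in nt; blue boxes are coding sequence, grey lines untranslated regions and red boxes same-strand hotspots of the single-stranded library. Only HTB8, among the 10, carries hotspots, at nt 9 to 64, 364 to 424 and 469 to 526, and HTB10 carries 3.

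Set beside the other core histones, the 10 H2B genes had a median RPKM just under that of H4, and 1 of the 10 had a hotspot, or 2 of 11 with HTB10. The H4 genes had a median of 5.04 RPKM over 8 genes, H3 2.76 RPKM over 14 and H2A 2.39 RPKM over 13. Their highest members were AT5G59690 (H4) at 13.0 RPKM, AT4G40040 (H3) at 18.7 RPKM and HTA9 (H2A) at 6.26 RPKM. The lowest were AT1G07660 (H4) at 2.44 RPKM, AT1G13370 (H3) at 0.161 RPKM and HTA4 (H2A), with a listed value of 0 (3 counts would give 0.878 RPKM). Hotspots were present on 4 of 8 H4, 6 of 14 H3 and 2 of 13 H2A genes, or 12 of the 35 together. In H3 and H4 they were found on members of high RPKM, such as AT4G40040, as well as low ones, whereas among the 10 H2B members the gene with a hotspot was the lowest; HTB10, with hotspots at 1.76 RPKM, lay above HTB7, HTB3 and HTB8. These counts are too small for a statement on a difference between the families, which was not tested.

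**Figure D5:**
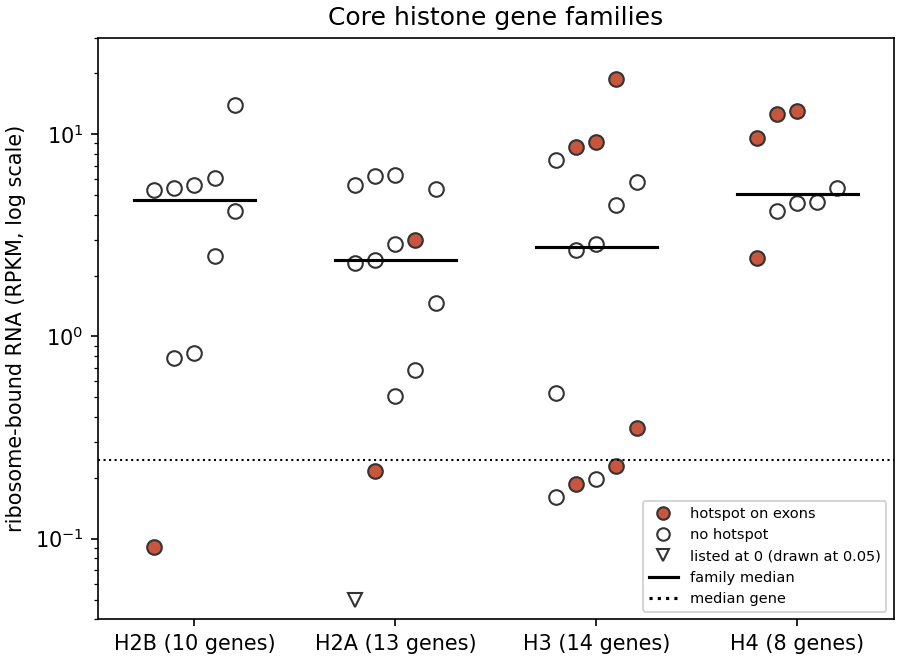
Ribosome-bound RNA of the core histone genes by family on a log axis in RPKM, 1 point per gene, filled where a hotspot lies on the exons; bars are family medians (4.73, 2.39, 2.76 and 5.04 RPKM for H2B, H2A, H3 and H4), the dotted line is the median gene, and the triangle is HTA4, listed at 0. The single filled H2B point is HTB8.

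Most H2B genes lie near other core histone genes. Within 50 kb, 6 of the 10 had another, against 3.56% of all nuclear protein-coding genes. HTB3 lies 1.54 kb from the H4 gene AT2G28740, HTB1 7.3 kb from the H4 gene AT1G07820, HTB9 13.3 kb from the H4 gene AT3G45930 and HTB6 22.1 kb from the H4 gene AT3G53730. HTB4 lies between HTA6, 10.7 kb away, and the H4 gene AT5G59970, 17.7 kb away. Neighbours did not share a level in every case: HTB3 stood at 0.779 RPKM and AT2G28740 at 4.16 RPKM, whereas HTB1 at 4.16 RPKM and AT1G07820 at 4.58 RPKM were close.

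The promoters of the members shared a short element. The hexamer ACGTCA, known from plant histone promoters, was searched on both strands from 250 bases before to 50 after the annotated transcript start. It was present in 8 of the 10 members, all but HTB7 and HTB8, and in 9.16% of the 26633 promoters. It was also present in 4 of 14 H3, 1 of 8 H4 and 0 of 13 H2A genes. In the 8 members all 9 matches read on the coding strand, 7 of them before the transcript start, and the hexamer on that strand was present in 5.29% of promoters. Exact matches of the octamer CGCGGATC and the nonamer CATCCAACG, present in 0.146 and 0.176% of promoters, were found in none of the 10. Inexact forms of either were not searched, so near matches, also beside the hexamer, are not excluded. Beyond the hexamer not all members are alike, as HTB3 reads ccaacgatactg after it. The 30 bases around the match are shown for 5 members and HTB10 (TAIR10.1), with the hexamer in capitals, chosen because they are alike there. They lie at chr3:16898152-16898181 for HTB9, chr3:16914202-16914231 for HTB11, chr2:15736667-15736696 for HTB5, chr1:2412895-2412924 for HTB1, chr3:19889189-19889218 for HTB6 and chr5:577259-577288 for HTB10.
HTB9: accaatattgacACGTCAtcgatcccgctt
HTB11: gtaatatattccACGTCAtcaatcctcgtg
HTB5: tttatttaagccACGTCAtcgatcctcgcg
HTB1: tgagaaatatacACGTCAatgatcctcgtg
HTB6: tggatggatgacACGTCAtcgatccgcaag
HTB10: tcatctaacgacACGTCAtcgatctatgtc

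After 3 further bases each of these reads ATC, which in HTB1, HTB5 and HTB6 lies within the octamer-like bases named above. That longer form, looked for after the windows had been seen, was present in 6 members (HTB1, HTB2, HTB5, HTB6, HTB9 and HTB11), in HTB10 and in 0.124% of all promoters, 33 in number, of which 3 more belong to H3 or H4 genes. The form was picked from the windows of these members, so its share among them has no independent check. The 6 members with it were among the 7 highest by RPKM, but a link between the form and RPKM was not tested. Genes with the form ran from AT1G62290 at 0.0287 RPKM to HTB9 at 6.07 RPKM. HTB4, the highest, has the hexamer 40 bases after the annotated start and not the longer form in the window. A match is a run of letters and not shown to be a bound site.

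Lists of genes that modify or carry H2B, or that act in replication, had medians below the H2B median of 4.73 RPKM. Their highest members lay within the interval of HTB6 (1.2 to 4.61 RPKM), all over listed lengths. Over its annotated length HTB6 stood at 1.1 RPKM, a value that leaves out any clones on the added bases, and the 3 were not recomputed in that way. Of 9 genes of H2B ubiquitination and its removal, 7 exceeded the median gene, and their median was 0.384 RPKM. The E2 enzyme gene UBC1 was highest at 1.64 RPKM (0.93 to 2.68), the E3 ligase genes HUB1 and HUB2 stood at 0.281 and 0.19 RPKM, and SGF11, a subunit of the deubiquitination module, had a listed value of 0 (3 counts would give 0.328 RPKM). Of 8 chaperone genes of the H2A and H2B dimer, 7 lay above the median gene, from 0.123 RPKM for NAP1;4 to 1.68 RPKM for NAP1;2, both nucleosome assembly proteins, with a median of 0.801 RPKM. Of 14 genes of DNA replication and its chromatin assembly, 11 lay above it, with a median of 0.67 RPKM, from the cyclin gene CYCA3;1 at 0.156 RPKM to MSI1, a subunit of the chromatin assembly factor CAF-1, at 1.73 RPKM. The share of all genes above it was 44.0%. Hotspots lay on 6 of 9, 5 of 8 and 10 of 14 genes of these lists, against 52.3% of all nuclear protein-coding genes. Their transcripts, of 877 to 3962 nt, spanned a wider range of length than those of H2B (727 to 1286 nt).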

How the data were processed

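Both libraries came from immature flower bud clusters, 1 per assay. Build TAIR9, Bowtie 0.12.7 and cutadapt 0.9.5 are named per the submitters' processing notes. How hotspots were called and clones weighted is not stated there. Per the file headers, the deposited table holds clone counts, estimated counts of weighted clones, RPM and RPKM by the authors, where RPM is weighted clones scaled by the 9574408 mapped clones and RPKM is RPM per kb of listed transcript length. The deposited hotspots carry a score below 0 whose formula is not stated, and lower was taken as stronger; the list's name carries an FDR of 5%.

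The members and lists were chosen with earlier results of these data known. For each of 26633 nuclear protein-coding genes of the RefSeq annotation of TAIR10.1, the isoform of longest coding sequence in both sources was used. A hotspot was assigned with at least 1 base on exons of the same strand. Hotspot positions are in TAIR9 and gene models in TAIR10.1: 82.3% of nuclear hotspot bases lay in same-strand exons, against 45.2% when moved by 1000 nt, and within 200 kb of HTB8 85.5% against 38.5%. Poisson intervals were taken on the weighted clones. Proteins were translated from the reference and aligned globally (Biopython 1.88, BLOSUM62). Named genes were every member, HTB10, the highest and lowest of each other list and histone genes within 50 kb of a member; HUB1 and HUB2 were named beside these for their role. Overlap and interval functions were tested on simulated data, the intervals on whole counts only. The 6 alternatives on weights, isoform, length, overlap, score and region searched were computed, with 2 added after seeing the data.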

Additional observations from a re-analysis of the deposited data

How the results depend on the processing

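No paired analysis was possible because each assay has 1 library and no replicate numbers. The H2B median of 4.73 RPKM rose to 7.84 RPKM on unweighted clones, and no interval is given here for the median. It was 3.41 RPKM over annotated lengths and 5.29 RPKM without HTB8, a setting chosen after seeing the data. With the isoform of highest RPKM it stayed at 4.73 RPKM, as every member has 1 isoform in both sources. Among single members, 9 moved beyond their counting interval on unweighted clones and 3 over annotated lengths. HTB4 stayed first and HTB8 last under all 3 settings. Whether the interval of HTB4 stayed apart from the others on unweighted clones or over annotated lengths was not computed. The count of members with a hotspot was 1, and it was 0 when only hotspots stronger than the median score of all hotspots were kept, since the strongest of HTB8 equals that median. It stayed at 1 with at least 25 exon bases, over the whole gene and, added after seeing the data, on either strand. Depth limits HTB8, HTB3 and HTB7 most, with 8 to 12 clones each.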

Other observations

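Beyond the exons of the 10 members, 15 hotspots lay within 2000 nt of them on either strand, all on other annotated genes. The nearest was 49 nt downstream of HTB2 on the opposite strand, at chr5:7651728-7651819 (TAIR9) with a score of -3.34, on AT5G22875. The nearest on the strand of the member was 112 nt downstream of HTB11, at chr3:16913222-16913272, on AT3G46020.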
